A study of Rattus norvegicus with 4 samples.

Results

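Mural and smooth muscle genes were followed in synovium, the tissue that lines the joint, of rats with osteoarthritis. The set was a fixed list of 31 symbols, and all 31 had a row among the 17899 rat genes of the expression table. It held 24 genes of the contractile smooth muscle cell and 7 markers of pericytes. The data were 4 bulk messenger RNA libraries. AdMSC 1 came from synovium injected with human AdMSCs and SyMSC 1 from synovium injected with human SyMSCs, abbreviations that the labels leave unexplained and that commonly stand for human mesenchymal stem cells of adipose tissue and of synovium. PBS 1 and PBS 2 came from synovium injected with PBS, a salt buffer. Below, "injected" and "after injection" refer to the human cells of either source, set against PBS. All 4 libraries shared the disease label of osteoarthritis, and the human cells were given 1 day before the tissue was taken, as far as the design text says. The strain, age, model of osteoarthritis and number of animals per library were not given in the sources used here. By title, PBS 1 goes with AdMSC 1 and PBS 2 with SyMSC 1. The titles call the PBS libraries "mix", a word that the labels do not explain, and the groups here follow the treatment label. No label ties a library to an animal, so the p-values measure only how far these libraries spread, which may be technical.

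Mural cells wrap the outside of blood vessels. Smooth muscle cells of arteries and veins contract through a dedicated actin and myosin system, whose genes are switched on by serum response factor (Srf) together with its cofactor myocardin. Pericytes sit on capillaries, carry the platelet-derived growth factor receptor beta and have little of the contractile system. In bulk tissue, fewer cells of a type and less RNA per cell cannot be told apart, and a gain of other cells lowers the share of the rest.

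Acta2, which encodes the smooth muscle alpha-actin, is shown by its promoter because its start region carries the best known binding elements of Srf, the CArG boxes. The stretch below is the RefSeq promoter in build GRCr8 at chr1:241172454-241172753, minus strand, from 250 bases before to 50 bases after the annotated start, with CArG-like elements in capitals. The authors' own build was Rnor_6.0, and no value depends on these coordinates.
Acta2: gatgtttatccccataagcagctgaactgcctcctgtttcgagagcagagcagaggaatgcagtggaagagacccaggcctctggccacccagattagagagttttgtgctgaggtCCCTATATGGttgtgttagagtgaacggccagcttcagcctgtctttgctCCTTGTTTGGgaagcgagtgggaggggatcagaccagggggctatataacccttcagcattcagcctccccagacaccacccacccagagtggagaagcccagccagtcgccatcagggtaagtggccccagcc
The 2 elements, CCCTATATGG and CCTTGTTTGG, begin 134 and 84 bases before the start. Each departs from the strict CArG box by 1 base of its 6-base core that is not A or T. A promoter of this window was found for 21 of the 31 members (17 contractile, 4 pericyte). It was lacking for Tagln, Myh11, Lmod1, Myl9, Lpp, Myocd, Aoc3, Pdgfrb, Mcam and Higd1b. The counts below therefore say nothing about these genes. The strict CArG box lay in 0 of these 21 and in 1.64% of all 27457 promoters. With 1 such base allowed, a spelling chosen after the strict search, Acta2 was the only member of the 21 with a match, against 9.27% of all promoters, and 0.852% of all promoters held at least 2 matches as Acta2 does. The MCAT box GGAATG, bound by TEAD factors and searched on both strands, lay in 6 of the 21 members (Acta2, Cald1, Tpm1, Mylk, Nexn and Flna, all contractile) and in 13.9% of all promoters. It overlapped neither CArG-like element in Acta2. These are matches of letters in a short window; the windows leave out introns and distant enhancers.

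The libraries were judged by a few markers first. The lubricin gene Prg4, which marks the synovial lining, stood between 2448 TPM and 4192 TPM in all 4 libraries. Cd55, another lining marker, was present in all 4 too, at 45.7 TPM and 48.9 TPM after injection and 123.7 TPM and 120.6 TPM with PBS. TPM (transcripts per 1000000) is a length-normalised share of each library's transcripts, and it does not give the read depth. Between 12582 and 13155 genes reached 1 TPM in each library. Among genes of other cells, 4 of 4 neutrophil markers rose after injection and their summed level was 2045 TPM and 3486 TPM in the injected libraries against 212 TPM and 76.1 TPM with PBS. Of these markers S100a8 and S100a9 were not called without AdMSC 1 (limma adjusted p = 0.164 and 0.135) or SyMSC 1 (0.217 and 0.178), nor Cxcr2 without SyMSC 1 (0.0569). Summed macrophage markers stood at 2997 TPM and 3018 TPM against 1784 TPM and 2327 TPM; 3 of these 6 rose (Cd68, Csf1r and Msr1), 1 fell (C1qb) and 2 did not pass. The C1qb call ended with no filter (limma adjusted p = 0.0658) and without AdMSC 1 (0.105), SyMSC 1 (0.0922) or PBS 2 (0.137). Summed fibroblast markers stood at 12574 TPM and 8990 TPM after injection and 34364 TPM and 27428 TPM with PBS. The part of these shifts in cell make-up in the results below was not tested. The PBS libraries differed from each other in skeletal muscle (1766 TPM in PBS 1 and 662 TPM in PBS 2 summed over 12 markers) and in adipocyte markers (53 TPM and 270 TPM, rounded, over 4 markers). They differed in blood content too. Summed over 3 erythroid markers, PBS 1 stood at 21673 TPM and PBS 2 at 7662 TPM, beside 5306 TPM in AdMSC 1 and 11218 TPM in SyMSC 1. Of these 3 markers 0 passed, injected against PBS. The part of blood content in the mural values was not tested.

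After injection the mural and smooth muscle genes fell almost throughout. The injected group holds 1 library of each cell source, so its spread mixes source with replicate. Of the 31 members, 30 passed the filter on low values (at least 1 TPM in at least 2 libraries) and were tested, injected (n = 2) against PBS (n = 2). Of these, 29 fell, 0 rose and 1, Flna, did not pass an adjusted p of 0.05 (limma, Benjamini-Hochberg over all 13371 genes tested). Over all genes 24.7% fell and 23.7% rose. The contractile members fell in 22 of 23 tested cases with a median log2 change of -2.16, and the pericyte members in 7 of 7 with a median of -1.89, beside a median of 0.00087 over all genes. Changes are differences of log2(TPM + 1), in which the added 1 shrinks those of low genes. In each of the 31 members both injected libraries lay below both PBS libraries, a pattern seen in 39.4% of all genes that passed the filter. Together the members made up 0.1885% and 0.1536% of all transcripts in AdMSC 1 and SyMSC 1, and 0.5987% and 0.707% in PBS 1 and PBS 2.

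**Figure D1:**
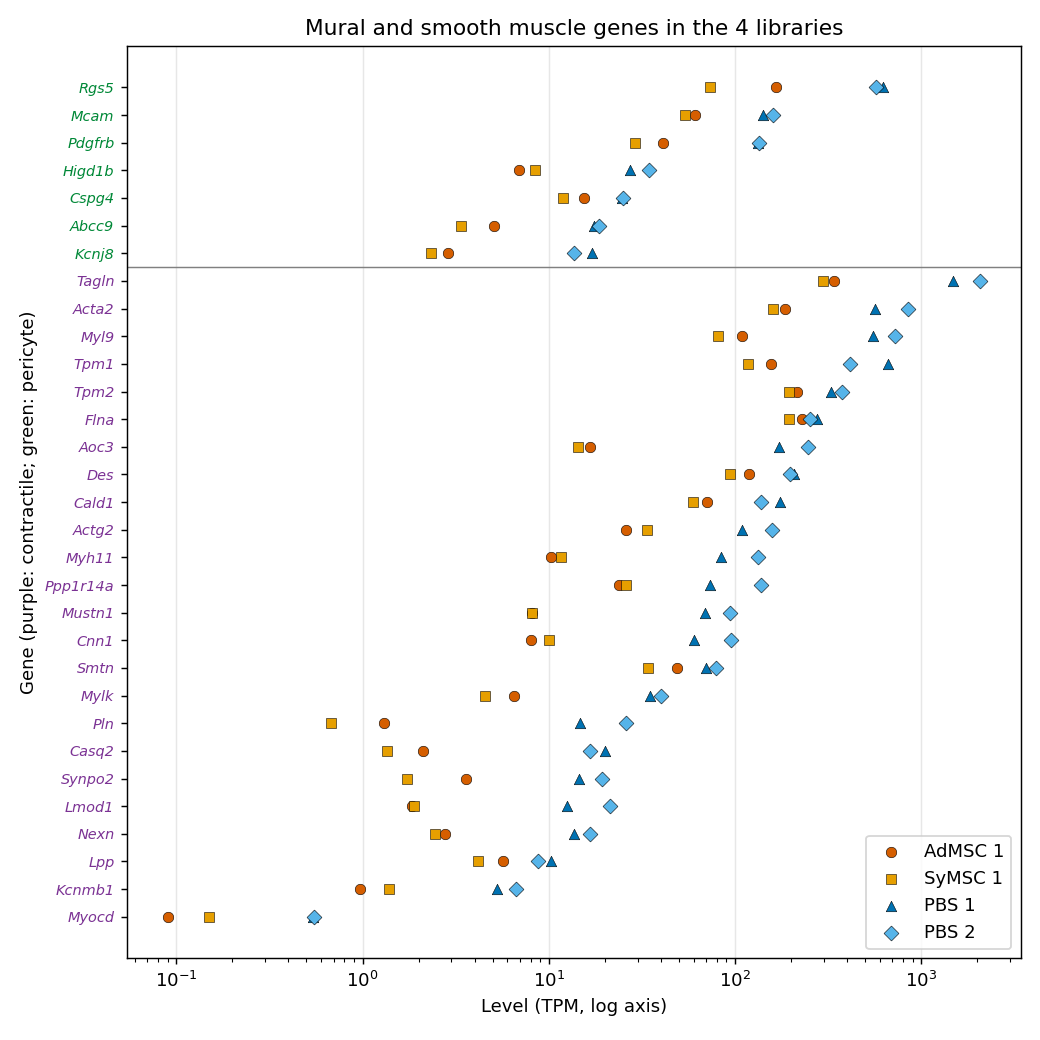
Level of each of the 31 members in TPM (log axis) in the 4 libraries, with 1 symbol per library, contractile genes below the line and pericyte markers above it, each ordered by mean PBS level. For every gene the orange injected symbols lie left of the blue PBS symbols, closest for Flna (195 to 228 TPM against 252 to 275 TPM) and widest apart for Pln (0.68 and 1.31 TPM against 14.7 and 26.1 TPM).

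Actin and its thin filament partners fell in 9 of 9 cases. Acta2 (gene ID 81633) stood at 185 TPM in AdMSC 1, 159.9 TPM in SyMSC 1, 562 TPM in PBS 1 and 849 TPM in PBS 2. The PBS libraries were the higher pair and differed more from each other than the injected ones did. The log2 change was -2.00 (SE 0.22, limma adjusted p = 0.0012). Tagln (gene ID 25123), whose product transgelin binds actin filaments, was the most abundant member in every library. It stood at 339 TPM and 296 TPM in AdMSC 1 and SyMSC 1, and at 1481 TPM and 2064 TPM in PBS 1 and PBS 2 (limma log2 change -2.46, SE 0.19, adjusted p = 0.000448). Actg2, the enteric gamma-actin of smooth muscle, stood at 26.1 TPM and 33.8 TPM after injection and 109 TPM and 159 TPM with PBS (log2 change -2.11). Acta2, Actg2 and the skeletal actin gene Acta1 are close in sequence, so reads may have been divided among them and their separate levels are uncertain.

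The steepest falls in this group were those of Cnn1 and Lmod1. Cnn1, the calponin that restrains the actin-activated myosin motor, went from 60.4 TPM and 95.2 TPM with PBS to 8.02 TPM in AdMSC 1 and 9.97 TPM in SyMSC 1 (limma log2 change -2.95, SE 0.24, adjusted p = 0.00055). Lmod1, which nucleates actin filaments in smooth muscle, went from 12.5 TPM and 21.3 TPM to 1.84 TPM and 1.90 TPM (limma log2 change -2.60, SE 0.26, adjusted p = 0.00088). In both genes the injected libraries lay close together. Tpm2, Smtn and Cald1 had the log2 changes nearest 0 in this group. Tpm2 (beta-tropomyosin) stood at 215 TPM and 194 TPM in the injected libraries and 328 TPM and 377 TPM in the PBS libraries, a log2 change of -0.78. Smtn (smoothelin) stood at 48.9 TPM and 33.9 TPM against 69.8 TPM and 78.7 TPM, a log2 change of -0.85. Cald1 (caldesmon) stood at 70.7 TPM and 59.2 TPM against 173 TPM and 139 TPM, a log2 change of -1.25. These 3 genes kept a larger share of their PBS level than Acta2 did, and no test of that difference was made. The Smtn call ended without PBS 2 (limma adjusted p = 0.0568).

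Tpm1, which encodes alpha-tropomyosin of smooth and striated muscle, stood at 155 TPM and 118 TPM after injection, and at 666 TPM in PBS 1 and 414 TPM in PBS 2 (limma log2 change -1.95, SE 0.27, adjusted p = 0.00316). It was higher in PBS 1 than in PBS 2, the reverse of Acta2, Tagln and Cnn1. PBS 1 was also the library with the higher fast skeletal muscle markers. Myh4, the myosin of the fastest fibres, stood at 75 TPM, rounded, in PBS 1 and 6.67 TPM in PBS 2, and Ckm, muscle creatine kinase, at 230.5 TPM and 75.9 TPM. In the injected libraries Myh4 was at 0.56 TPM and 0.74 TPM. Of 9 skeletal muscle markers tested, 4 fell (Myl1, Actn3, Ckm and Tnnt3) and 5 did not pass. The calls of 3 of them ended without AdMSC 1 (limma adjusted p = 0.131 for Myl1, 0.238 for Actn3 and 0.205 for Ckm) or without SyMSC 1 (0.0997, 0.246 and 0.185). The count of markers called lower was 1 when AdMSC 1 or SyMSC 1 was left out, 6 without PBS 1 and 8 without PBS 2. Myh4 was called without PBS 1 (limma adjusted p = 0.0007) or PBS 2 (4.59e-05), and the skeletal actin gene Acta1 without PBS 1 (0.00933) or PBS 2 (0.00149), with no filter (0.028), with a pseudocount of 0.1 (0.04998) and under median-ratio (0.0378) or upper-quartile scaling (0.0376). The part of skeletal muscle in the Tpm1 values was not tested. Of the 31 members, 8 are also made by skeletal muscle (Des, Tpm1, Tpm2, Casq2, Mustn1, Pln, Nexn and Synpo2). Without them 21 of 22 tested members fell, with a median log2 change of -1.98.

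Myosin and the proteins that control it fell in 4 of 4 cases. Myh11 (gene ID 24582), the heavy chain of smooth muscle myosin and the most restricted marker of these cells, stood at 10.3 TPM in AdMSC 1, 11.6 TPM in SyMSC 1, 84.4 TPM in PBS 1 and 132 TPM in PBS 2. The injected libraries differed by little and lay far below both PBS libraries (limma log2 change -3.16, SE 0.22, adjusted p = 0.000413). The regulatory light chain gene Myl9 (gene ID 296313) stood at 108 TPM and 81 TPM against 549 TPM and 719 TPM (limma log2 change -2.73, SE 0.20, adjusted p = 0.000408). Mylk, the kinase that phosphorylates this light chain to start contraction, stood at 6.53 TPM and 4.54 TPM against 35.1 TPM and 39.96 TPM (limma log2 change -2.57, SE 0.19, adjusted p = 0.000408). Motor, light chain and kinase thus all lay lower after either cell source. Ppp1r14a, which encodes the inhibitor CPI-17 of myosin phosphatase, stood at 23.7 TPM and 26.1 TPM against 73.2 TPM and 137 TPM (limma log2 change -1.97, SE 0.31, adjusted p = 0.00651). The PBS values were far apart, and the call ended without AdMSC 1 (limma adjusted p = 0.0777) or SyMSC 1 (0.0723).

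**Figure D2:**
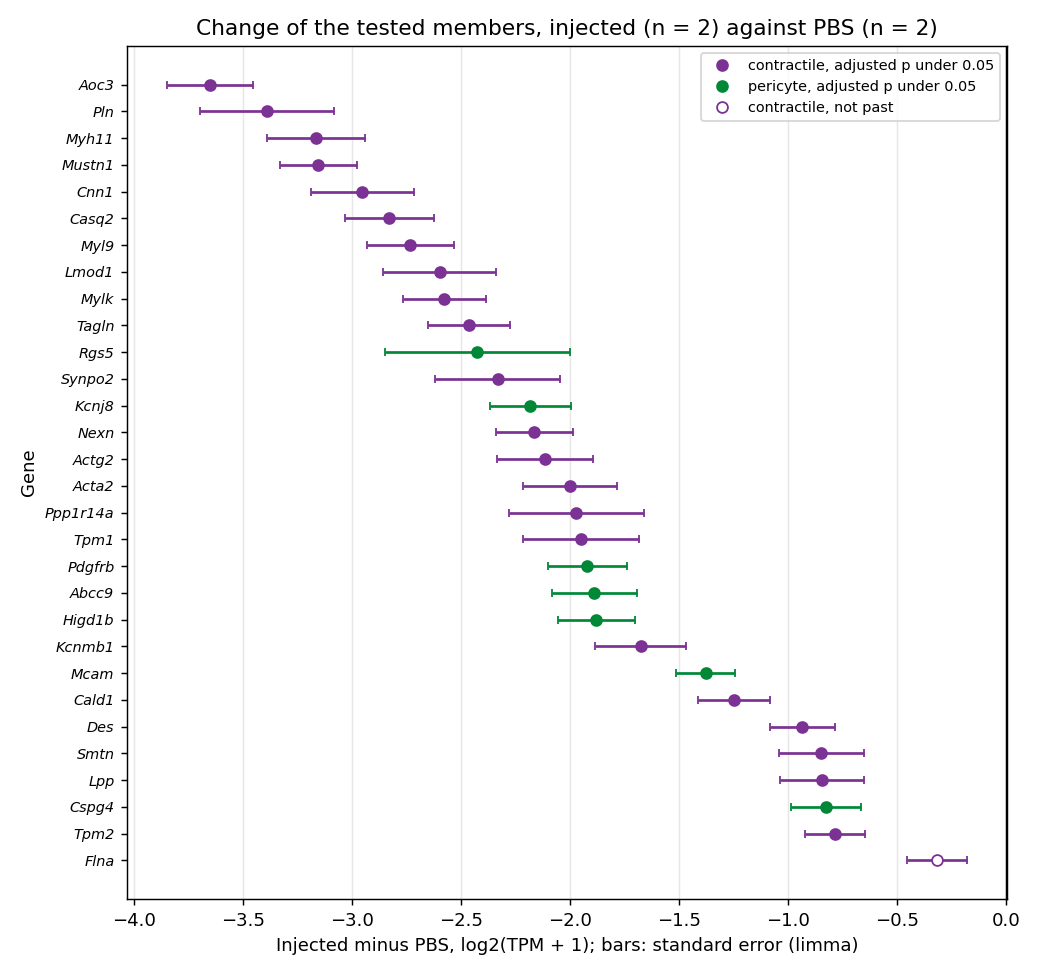
Log2 change of the 30 tested members, injected minus PBS on the log2(TPM + 1) scale, with bars for the standard error from limma; filled points passed an adjusted p of 0.05, purple points are contractile genes and green points pericyte markers. All points lie below 0, from -3.65 for Aoc3 to -0.32 for Flna, the open point, and the pericyte markers lie between -2.42 and -0.83.

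Among filaments, scaffold and adhesion proteins 4 of 5 members fell and 1 did not pass. Synpo2, a partner of actin at the Z-disc and in smooth muscle dense bodies, stood at 3.58 TPM and 1.73 TPM against 14.5 TPM and 19.4 TPM (limma log2 change -2.33, SE 0.29, adjusted p = 0.00181). Nexn (nexilin, an actin-binding protein) stood at 2.76 TPM and 2.45 TPM against 13.6 TPM and 16.8 TPM (limma log2 change -2.16, SE 0.18, adjusted p = 0.000511). In both genes the groups were well separated. Des, the intermediate filament protein desmin, stood at 118 TPM and 94 TPM, rounded, in the injected libraries and 206 TPM and 199 TPM in the PBS libraries. Its log2 change was -0.93 (SE 0.15, limma adjusted p = 0.00386), smaller than that of most contractile members. Lpp, a zyxin-family protein of adhesions that is abundant in smooth muscle, stood at 5.66 TPM and 4.17 TPM against 10.3 TPM and 8.79 TPM (limma log2 change -0.84, SE 0.19, adjusted p = 0.014). That call ended without SyMSC 1 (limma adjusted p = 0.0622) or PBS 1 (0.0599). Flna, the actin cross-linker filamin A that most cells make, stood at 228 TPM in AdMSC 1, 195 TPM in SyMSC 1, 275 TPM in PBS 1 and 252 TPM in PBS 2. The groups did not overlap, but the log2 change of -0.32 (SE 0.14) did not pass (limma adjusted p = 0.103).

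The calcium and membrane proteins were low genes that fell in 3 of 3 cases. Pln, phospholamban, which restrains the calcium pump of the sarcoplasmic reticulum, stood at 1.31 TPM in AdMSC 1, 0.68 TPM in SyMSC 1, 14.7 TPM in PBS 1 and 26.1 TPM in PBS 2. Its PBS mean was 20.5 times its injected mean, the highest ratio among the members (limma log2 change -3.39, SE 0.31, adjusted p = 0.000742), and injected values this near 1 TPM are imprecise by an unknown amount. Casq2, the calcium store protein calsequestrin 2, stood at 2.12 TPM and 1.36 TPM against 19.96 TPM and 16.7 TPM (limma log2 change -2.83, SE 0.21, adjusted p = 0.000404). Both genes are also made in heart and slow skeletal muscle. Of 3 cardiac markers, Myh6 and Tnni3 were at most 0.05 TPM and 0.42 TPM in any library, and Tnnt2 stood at 4.11 TPM and 2.52 TPM after injection and 3.03 TPM and 2.90 TPM with PBS. The slow fibre gene Myh7 stood at 0.93 TPM and 1.88 TPM against 0.19 TPM and 0.67 TPM. Tnnt1, of the same fibres, stood at 5.14 TPM and 8.59 TPM against 3.08 TPM and 4.57 TPM (log2 change 0.69, limma adjusted p = 0.0833), and was called higher without AdMSC 1 (0.0385). The part of striated muscle in the Pln and Casq2 values was not tested. Kcnmb1, the beta subunit of the calcium-activated potassium channel of smooth muscle, stood at 0.97 TPM and 1.39 TPM against 5.25 TPM and 6.68 TPM (limma log2 change -1.67, SE 0.21, adjusted p = 0.00173). Its pore-forming partner Kcnma1, not a member, fell as well, from 4.50 TPM and 3.61 TPM to 0.75 TPM and 0.45 TPM.

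The regulators and the surface enzyme held the member with the lowest level, Myocd, and the one with the lowest change on the log2(TPM + 1) scale, Aoc3. Myocd (myocardin) stood at 0.09 TPM in AdMSC 1, 0.15 TPM in SyMSC 1, 0.54 TPM in PBS 1 and 0.55 TPM in PBS 2, and did not reach the filter. With no filter it was called lower (log2 change -0.46, limma adjusted p = 0.0164), a change that the added 1 compresses. Mustn1, a small nuclear protein of muscle and bone whose family name is musculoskeletal embryonic nuclear protein, stood at 8.16 TPM and 8.11 TPM after injection and 68.6 TPM and 93.9 TPM with PBS (limma log2 change -3.15, SE 0.18, adjusted p = 0.000257). Aoc3 (gene ID 29473), a surface amine oxidase of smooth muscle, adipocytes and endothelium, stood at 16.7 TPM in AdMSC 1, 14.4 TPM in SyMSC 1, 172 TPM in PBS 1 and 247 TPM in PBS 2. It had the lowest log2 change of the members, -3.65 (SE 0.20, limma adjusted p = 0.000239), and the rank 35 from the lowest among 13371 genes. Adipocytes are another source of it: Adipoq stood at 33.4 TPM and 43.3 TPM against 39.7 TPM and 195 TPM and did not pass (limma adjusted p = 0.376), but was called lower without PBS 1 (log2 change -2.33, limma adjusted p = 0.000431). All 3 adipocyte markers tested, Adipoq among them, had log2 changes between -1.58 and -1.20, and 0 of them passed. The part of adipocytes in the Aoc3 values was not tested.

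The pericyte markers fell in 7 of 7 cases, and their PBS libraries differed by between -0.29 and 0.33 on the log2(TPM + 1) scale. Rgs5 (gene ID 54294), a regulator of G protein signalling and the most abundant pericyte marker here, stood at 166 TPM in AdMSC 1, 73 TPM in SyMSC 1, 620.4 TPM in PBS 1 and 573 TPM in PBS 2. The injected libraries were lower but far apart from each other (limma log2 change -2.42, SE 0.42, adjusted p = 0.0132), and the call ended without PBS 1 (limma adjusted p = 0.0999) or PBS 2 (0.094). The ATP-sensitive potassium channel of pericytes is built from a pore, Kcnj8, and a sulfonylurea receptor, Abcc9. Kcnj8 stood at 2.86 TPM and 2.34 TPM against 17 TPM, rounded, in PBS 1 and 13.7 TPM in PBS 2 (limma log2 change -2.18, SE 0.18, adjusted p = 0.00055). Abcc9 stood at 5.07 TPM and 3.40 TPM against 17.6 TPM and 18.7 TPM (limma log2 change -1.89, SE 0.20, adjusted p = 0.000987). Pore and receptor were thus low together in the injected libraries.

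The receptors and surface proteins of pericytes had steady PBS levels. Pdgfrb (gene ID 24629), the receptor through which endothelial platelet-derived growth factor recruits mural cells, stood at 41.2 TPM and 29.1 TPM against 133 TPM and 135 TPM (limma log2 change -1.92, SE 0.18, adjusted p = 0.000724). Fibroblasts also make this receptor. Mcam, the adhesion molecule CD146 that endothelium also carries, stood at 61 TPM and 53.8 TPM against 142 TPM and 159 TPM (limma log2 change -1.38, SE 0.13, adjusted p = 0.000821). Cspg4, the NG2 proteoglycan, stood at 15.4 TPM and 11.9 TPM against 24.7 TPM and 24.9 TPM (limma log2 change -0.83, SE 0.16, adjusted p = 0.00762). It fell least among the pericyte markers. Higd1b, a small mitochondrial membrane protein of pericytes, stood at 6.93 TPM and 8.47 TPM against 27.4 TPM and 34.7 TPM (limma log2 change -1.88, SE 0.18, adjusted p = 0.000708).

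In each title pair the direction was the same for all 31 members. AdMSC 1 lay below PBS 1 by at least 2-fold on TPM + 1, with the higher value at least 5 TPM, in 24 of 31 members, against 9.89% of 13371 genes. SyMSC 1 lay below PBS 2 by that much in 27 of 31 members, against 12.2% of genes. The contractile median was -1.99 in the first pair and -2.38 in the second, and the pericyte median was -1.67 and -2.14, each pair being 1 library against 1 with no test. On TPM + 1, Tpm2, Des, Flna, Lpp, Smtn and Cspg4 stayed within 2-fold in AdMSC 1 against PBS 1. Of these, Des, Smtn and Cspg4 passed it in SyMSC 1 against PBS 2. Myocd stayed within it because the added 1 outweighs its values, which also lay under the floor of 5 TPM. On plain TPM it was 0.09 in AdMSC 1 and 0.54 in PBS 1, a ratio of 6.

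**Figure D3:**
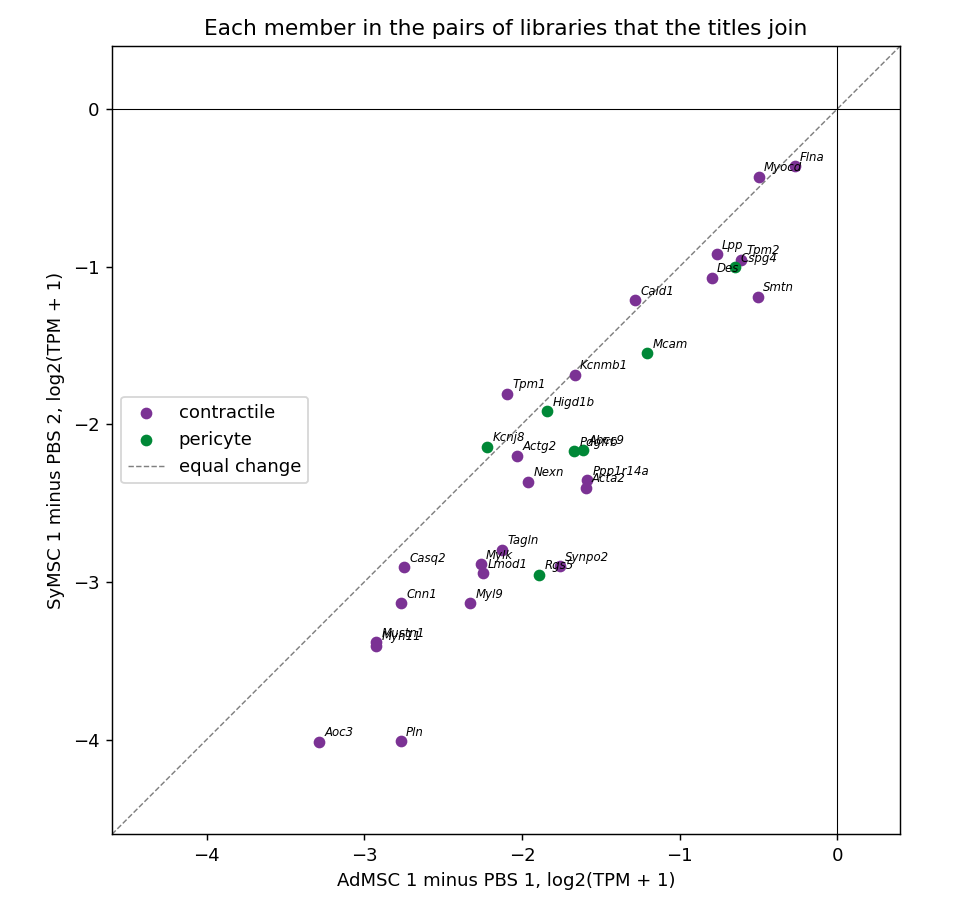
Difference of each of the 31 members in the pairs of libraries that the titles join, AdMSC 1 minus PBS 1 on the horizontal axis and SyMSC 1 minus PBS 2 on the vertical axis, both in log2(TPM + 1), with a dashed line of equal change. All points lie below 0 on both axes, from Flna (-0.27 and -0.36) to Aoc3 (-3.28 and -4.01).

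Between the cell sources, 0 of 30 tested members and 0 of 13371 genes (0%) passed an adjusted p of 0.05 (limma with 3 groups, in which the lone libraries are assumed to vary as the PBS libraries do). At an unadjusted p under 0.05 there were 4 members (Smtn, Synpo2, Pdgfrb and Rgs5) and 6.44% of all genes. SyMSC 1 was the lower library in 23 of 31 members, and in 65.4% of all genes. Rgs5 was the member that differed most, 166 TPM against 73 TPM (log2 change -1.18 for SyMSC minus AdMSC). It alone passed 2-fold on TPM + 1 with the higher value at least 5 TPM, a size that 0.546% of genes reached downward. On plain TPM, AdMSC 1 was also 2.07 times SyMSC 1 for Synpo2. The 8 members that were higher in SyMSC 1 were the contractile genes Actg2, Cnn1, Lmod1, Myh11, Ppp1r14a, Kcnmb1 and Myocd and the pericyte marker Higd1b.

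The PBS libraries gave the spread among controls. PBS 2 was the higher in 18 of 24 contractile members, with a median log2 difference of 0.34, and in 5 of 7 pericyte markers, with a median of 0.02; over all genes 45.4% were higher in PBS 2. The widest difference was that of Ppp1r14a (0.90), and 0 members passed 2-fold, against 0.725% of genes upward and 0.972% downward. The 6 contractile members that were lower in PBS 2 were Tpm1, Cald1, Casq2, Lpp, Flna and Des, of which Tpm1, Casq2 and Des are also made by skeletal muscle.

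Contractile genes and pericyte markers were then set against each other within each library. The summed contractile TPM was 1586 and 1354 in AdMSC 1 and SyMSC 1 and 5004 and 6111 in PBS 1 and PBS 2. The summed pericyte TPM was 299 and 182 in the injected libraries and 982 and 959 in the PBS libraries, in that order. The ratio of the sums was 5.31 and 7.43 in AdMSC 1 and SyMSC 1 and 5.09 and 6.38 in PBS 1 and PBS 2, so the injected and PBS libraries overlapped. Tagln was the largest term of the contractile sum and Rgs5 that of the pericyte sum in every library. With the geometric mean of TPM + 1, abundant genes no longer dominate, though the added 1 shrinks the differences of low genes. The ratio was then 0.971 and 1.12 in AdMSC 1 and SyMSC 1 and 1.15 and 1.36 in PBS 1 and PBS 2. The groups no longer overlapped, but the gap between them was narrower than the spread within either. Acta2 over Rgs5 overlapped, with 1.11 and 2.19 after injection and 0.905 and 1.48 with PBS. Myh11 over Rgs5 was 0.0617 and 0.158 after injection and 0.136 and 0.231 with PBS, also overlapping. Within both title pairs, each 1 library against 1 with no test, the injected library had the higher ratio of sums and of Acta2 over Rgs5, and the lower ratio of geometric means and of Myh11 over Rgs5. Without the members that skeletal muscle also makes, the ratio of sums turned slightly lower in the injected library. It was 3.61 in AdMSC 1 against 3.74 in PBS 1, and 5.13 in SyMSC 1 against 5.16 in PBS 2. The Sy-titled library had the higher value of each of these ratios among the PBS libraries as among the injected ones.

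Vessel lining genes moved with the mural genes. Of 8 endothelial markers 8 fell, with a median log2 change of -1.96, among them the tight junction gene Cldn5 (-2.41), Emcn (-2.16), Vwf (-2.08) and Pecam1 (-2.00). Summed over the 8 they stood at 188 TPM and 143 TPM after injection and 614 TPM and 682 TPM with PBS. The summed pericyte markers were 1.59 times this endothelial sum in AdMSC 1, 1.27 times in SyMSC 1, 1.60 times in PBS 1 and 1.41 times in PBS 2. The summed contractile genes were 8.43, 9.45, 8.15 and 8.97 times it, in the same order. Neither ratio separated injected from PBS libraries, while each of the sums did. Within both title pairs the injected library had the lower pericyte ratio and the higher contractile ratio.

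Single members did separate on this relative scale, in both directions. Divided by the endothelial sum of its own library, each member was classed by whether both injected values lay on 1 side of both PBS values. Of 31 members 14 were lower, 8 higher and 9 overlapped. The share of all genes that separate on this scale was not taken, so these counts have no background beside them. A gene that fell less than the endothelial sum comes out higher here. Pln had a log2 ratio of injected over PBS means of -2.41, Aoc3 of -1.76, Casq2 of -1.46, Mustn1 of -1.32, Myh11 of -1.29, Lmod1 of -1.16 and Cnn1 of -1.09. Those above their endothelial reference were Flna (1.66), Tpm2 (1.20), Smtn (1.12), Cspg4 (1.10), Des (1.03), Lpp (0.99), Cald1 (0.70) and Mcam (0.59). Acta2 (-0.04), Tpm1 (-0.04), Pdgfrb (0.03) and Higd1b (0.01) lay near 0 and overlapped. The scale was chosen after the values were seen, carries no test, and rests on a reference that itself fell.

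**Figure D4:**
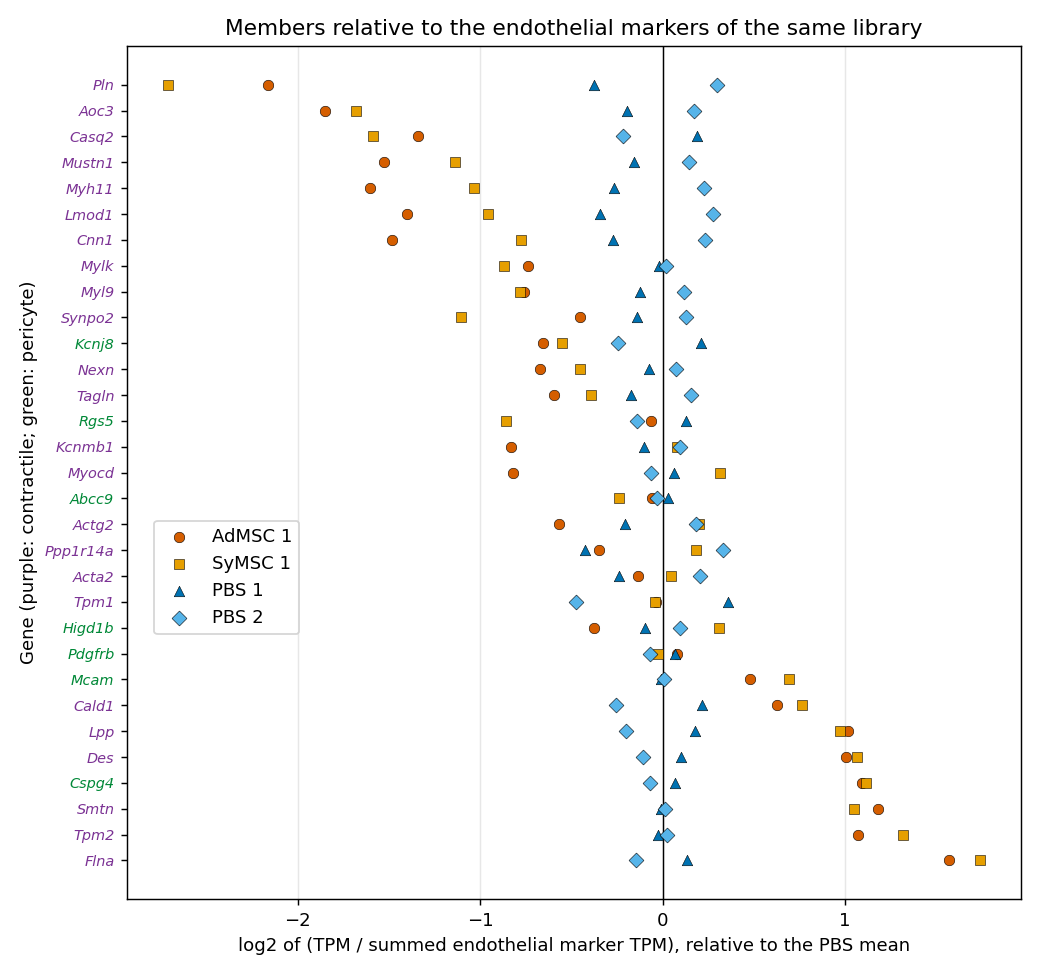
Each member's TPM divided by the summed TPM of 8 endothelial markers of the same library, as log2 relative to the mean of the PBS libraries, with 1 symbol per library; purple names are contractile genes and green names pericyte markers. Pln, Aoc3, Casq2, Mustn1 and Myh11 lie lowest in the injected libraries, Pdgfrb and Acta2 near 0, and Smtn, Tpm2 and Flna above 0.

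Other genes of the mural system were read from fixed lists. Of 15 tested further pericyte and mural genes 13 fell, 0 rose and 2 did not pass, with a median log2 change of -1.42. The call of the potassium channel gene Kcnk3 ended without AdMSC 1 (limma adjusted p = 0.0999), SyMSC 1 (0.0919) or PBS 2 (0.0786), and that of the endothelin receptor gene Ednra without PBS 1 (0.0814) or PBS 2 (0.0681). Those that fell most were Vtn, vitronectin (-3.42), Art3 (-2.64), Gucy1a1, a subunit of the nitric oxide receptor (-2.39), and the Notch target Heyl (-2.07). Notch3, the Notch receptor of mural cells, stood at 7.87 TPM and 6.09 TPM against 22.5 TPM and 21.6 TPM (limma log2 change -1.54, SE 0.16, adjusted p = 0.00103). Ndufa4l2, a mitochondrial protein induced by low oxygen and used as a pericyte marker, stood at 89.95 TPM and 92.5 TPM against 108 TPM and 75.4 TPM and did not pass (log2 change 0.02, limma adjusted p = 0.944). All 5 of the platelet-derived growth factor genes and their alpha receptor fell, including Pdgfb, the endothelial ligand that recruits pericytes, from 21.2 TPM and 21.4 TPM to 9.37 TPM and 9.10 TPM (limma log2 change -1.13, SE 0.13, adjusted p = 0.00139). Pdgfd (-2.28), Pdgfa (-0.95) and Pdgfra (-0.85) fell as well. The fall of Pdgfc (-0.58) was not called with no filter (limma adjusted p = 0.0771) or without AdMSC 1 (0.0504), SyMSC 1 (0.165) or PBS 1 (0.201).

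Contractile and adhesion genes outside the list divided, with 9 of 17 lower, 3 higher and 5 that did not pass, around a median of -0.88. Among those that fell most were the LIM domain gene Pdlim3 (-2.78), Sorbs2 (-2.53) and the calponin gene Cnn3 (-1.65), and the call of Csrp2 ended without PBS 1 (limma adjusted p = 0.0851). The 3 that rose, named after their values were seen, were Zyx (1.48), Cnn2 (0.70) and Tln1 (0.46), which leukocytes and other migrating cells also use. Cnn2 was not called without SyMSC 1 (limma adjusted p = 0.0892) or PBS 2 (0.112). Tln1 was not called without SyMSC 1 (0.0856), PBS 1 (0.114) or PBS 2 (0.126), nor under upper-quartile scaling (0.0545). Of 11 genes that control contraction in many cell types 3 fell, 1 rose and 7 did not pass, beside the 24.7% of all genes that fell. Under upper-quartile scaling 5 were called lower, Prkg1 (limma adjusted p = 0.0402) and Rock2 (0.0485) being added. Kcnma1 (-1.66), the calcium release channel gene Itpr1 (-1.26) and the myosin phosphatase subunit gene Ppp1r12b (-0.98) fell. The calcium pump gene Atp2a2, the target of phospholamban, rose from 65.9 TPM and 62.9 TPM to 106 TPM and 89.5 TPM (log2 change 0.59, limma adjusted p = 0.0139), a call that ended without PBS 1 (0.052) or PBS 2 (0.0755).

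Of the transcription factors behind the contractile program, Myocd lay lower after injection, as given above, Srf was called slightly higher, and the myocardin-related factors did not pass. Srf stood at 26.8 TPM and 25.2 TPM after injection and 20.1 TPM and 19 TPM, rounded, with PBS (limma log2 change 0.39, SE 0.13, adjusted p = 0.0449). That call ended without any 1 of the 4 libraries, at an adjusted p of 0.132 without AdMSC 1, 0.0839 without SyMSC 1, 0.123 without PBS 1 and 0.202 without PBS 2, and also with no filter (0.0564) and upper-quartile scaling (0.0708). The cofactor Mrtfa stood at 21.6 TPM and 23 TPM, rounded, against 20.9 TPM and 17.4 TPM (log2 change 0.22, limma adjusted p = 0.258), and its relative Mrtfb at 1.35 TPM and 0.75 TPM against 0.99 TPM and 1.05 TPM (log2 change 0.01, limma adjusted p = 0.984). Neither passed. Klf4, which represses contractile genes in cultured smooth muscle and is also made by endothelium and myeloid cells, fell from 79.95 TPM and 111 TPM to 42.7 TPM and 47.7 TPM (limma log2 change -1.05, SE 0.18, adjusted p = 0.00523). Of 11 genes in this list 3 fell (Klf4, Gata6 at -0.88 and Ccn1 at -0.81), 1 rose and 7 did not pass. That is near the share of all genes that fell, 24.7%, and below the 23.7% that rose. The Gata6 call ended without SyMSC 1 (limma adjusted p = 0.062), and that of Ccn1 without SyMSC 1 (0.0506) or PBS 2 (0.0664).

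Fibroblast genes had medians nearer 0 than the mural genes, a difference that was not tested. Of 8 fibroblast markers 6 fell around a median of -1.14, led by Col1a1 (-1.87), Thy1 (-1.73), Col3a1 (-1.66) and Lum (-1.23). Of 6 myofibroblast genes, Cthrc1 (-2.34) and Fap (-1.68) fell and 4 did not pass, with a median of -1.32. Postn, periostin, was called lower as well without AdMSC 1 (limma adjusted p = 0.0343). The summed contractile TPM divided by the summed fibroblast TPM was 0.126 in AdMSC 1 and 0.151 in SyMSC 1, against 0.146 in PBS 1 and 0.223 in PBS 2. The summed pericyte TPM divided in the same way was 0.0238 and 0.0203 against 0.0286 and 0.0349. The pericyte ratio was lower in both injected libraries, and the contractile ratio overlapped, though it was lower in the injected library of both title pairs.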

How the data were processed

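The authors deposited 1 table of TPM values with 2 decimals for the 4 libraries, per the file header; each column sums to 1000000 over 17899 rat genes. Per the labels' protocols, poly(A) RNA was captured, fragmented and primed with random hexamers, with dUTP in the second strand, and sequenced on a BGISEQ-500. HISAT2 2.0.4 and the build Rnor_6.0 are named in the submitters' processing notes; counter, annotation, strand setting and any removal of human reads are not given there or in the labels. No depth can be read from TPM, so no counting interval can be given.

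From these, log2(TPM + 1) was fitted with limma 3.58.1 in R 4.3.3 (moderated variances with the trend and robust options), for genes that reached 1 TPM in 2 or more libraries, injected against PBS with 2 residual degrees of freedom, and SyMSC against AdMSC with 3 groups and 1 residual degree of freedom. Benjamini-Hochberg adjustment ran over all genes tested, at 0.05. The fit was tested on simulated data with few shifted genes and independent noise, which checks the calculation and not the p-values of these libraries. Members, lists and tests were chosen with earlier results of these data known. All members were named; of each other list, up to 4 called genes with the largest change, or else 2 with the highest mean, were eligible, and Srf, Mrtfa, Mrtfb, Klf4, Notch3, Pdgfb and Pdgfra whatever their values; 1 eligible gene is not reported here. Of 116 list entries 115 had a row. Alternatives were other scalings, no filter, an added 0.1 in place of 1, a block for the title arm, leaving out libraries in turn, and other rules for pairs. Promoters came from RefSeq (GRCr8) by gene ID.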

Additional observations from a re-analysis of the deposited data

How the results depend on the processing

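With each library left out in turn, between 27 and 28 members, 20 to 21 contractile and 6 to 7 pericyte members were called lower, and with the other scalings, no filter, a pseudocount of 0.1 or the title arm as a replicate block between 29 and 30 members were. The median log2 change was between -2.42 and -2.1 for contractile and between -2.12 and -1.68 for pericyte members when 1 library was left out, and reached -2.46 and -2.00 for the 2 classes with a pseudocount of 0.1. Of 270 values of single tested members under alternatives, 270 stayed below 0, 262 kept their call, 7 (Smtn, Ppp1r14a, Lpp and Rgs5, with a library left out) lost it and 1 gained it (Flna under upper-quartile scaling, adjusted p = 0.0386, limma). The title arm as a replicate block left 29 members called lower and changed no member's call, but added calls outside the members: Postn and Lrrc15 (4 myofibroblast genes lower in place of 2), Ccn2, Plin1 and C1qa lower and Tnnt1 higher; the titles do not say what the arm stands for, and the deviations of AdMSC 1 and PBS 1 from their groups' means had r = 0.12 across 13371 genes, which are not independent. Without the members that skeletal muscle also makes, the ratio of contractile to pericyte sums was 3.61 and 5.13 in AdMSC 1 and SyMSC 1 and 3.74 and 5.16 in PBS 1 and PBS 2. This ratio was slightly lower in the injected library of each title pair, where the ratio over all members was higher. With geometric means of TPM + 1 in place of sums the ratio over all members was 0.971, 1.12, 1.15 and 1.36. These values were lower in both injected libraries than in both PBS libraries, by less than the spread within either group. SyMSC against AdMSC gave 0 member calls under each scaling, filter and pseudocount tried; leaving out a library or adding the block leaves it no residual degree of freedom, so neither was run.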
